A study of Mus musculus with 4 samples.

Results

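Sterol and fatty acid synthesis genes were followed across 4 populations of mouse CD4 T cells. The group comprised 32 named genes of the mevalonate and cholesterol pathway, its regulators, and the synthesis, desaturation and elongation of fatty acids. A gene was a member when the platform annotation gave its symbol to at least 1 probe set, a group of short probes that together read 1 transcript. Of the 32 genes, 31 were measured, out of 18193 genes on the array, and each was read from its brightest probe set. Acat2, a cytosolic thiolase at the head of the pathway, was not analysed here.

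The study compared IL-17-producing T cells of different origins, each population on 1 array. The exFoxp3Th17 population was raised from Foxp3+ CD4 T cells in Th17 culture and sorted as positive for an IL-17 GFP reporter and negative for Foxp3. The Th17 population came from naive CD4 T cells in Th17 culture and was sorted through that same gate. The Treg population was raised from Foxp3+ CD4 T cells with IL-2 and sorted as Foxp3 positive and IL-17 negative, and the Th0 population was raised from naive CD4 T cells under Th0 conditions and sorted as negative for both. The mice were C57BL/6, aged 8 to 10 weeks, and spleen and lymph nodes were taken from all groups. Pooling of animals and the reporter allele are not stated in the labels. With 1 array per population there was no spread between samples and no test, so every difference below is between 2 arrays.

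Cholesterol is built from acetyl-CoA through mevalonate, isoprenoid diphosphates, squalene and lanosterol, and fatty acids are built from malonyl-CoA and then desaturated and elongated. Transcription of both routes is driven by the SREBP factors, which INSIG proteins hold in the endoplasmic reticulum while sterols are plentiful. Oxysterols act through a separate receptor, LXR, which induces cholesterol export. Activated T cells are known to switch on SREBP-dependent lipid synthesis as they grow and divide.

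The values were MAS5 signals, which had the same mean on each array once the lowest and highest 2% of probe sets were set aside. The median signal of 12.1 over the 4 arrays was taken as a floor, and 48.7% to 51.2% of probe sets lay above it per array. Foxp3 was read at 584.9 in Treg and below the floor on the other arrays, while Il17a was below the floor on all 4 (7.1 to 9.8) and gave no check of the IL-17 gate. Cd4 was at 98.1 in exFoxp3Th17, 81.2 in Th17, 48.3 in Treg and 109.6 in Th0. The exFoxp3Th17 array stood apart in sex-linked RNA: Xist was at 3766 there, against 7.7 in Th17, 10.8 in Treg and 7.4 in Th0, and Y-linked Eif2s3y was at 4.7, against 875.8, 654.5 and 747.3. The comparisons that use this array cross that difference, those of Th17 and of Treg with Th0 do not, and among the members Nsdhl and Ebp lie on chromosome X. Of 8 T cell markers 7 were measured, and these were above the floor on all 4 arrays. Of the B cell and myeloid markers, Cd79a, Ms4a1, Pax5, Lyz2, Cd14, S100a8, S100a9 and Itgam were below the floor on every array. Csf1r was above it on all 4 (12.6 to 23.4), and Adgre1 was at 32.2 in Th0 and 12.8 in Treg. The summed signal of the 4 measured B cell markers was 17.0 to 66.7, most of it Cd79b in Treg (55.6), and that of the 7 myeloid markers 37.9 to 82.4. Both CD8 markers together gave 66.0 to 97.0. The 6 adipocyte and stromal markers summed to 227.4 in exFoxp3Th17, 101.4 in Th17, 69.2 in Treg and 124.9 in Th0. Most of that was endothelial and leukocyte Pecam1 (191.9 in exFoxp3Th17, 79.8 in Th17, 46.9 in Treg, 94.9 in Th0), the part of which in the results was not tested; Lep, Col1a1 and Col3a1 were below the floor throughout and Adipoq reached 17.8. All 31 members were above the floor on all 4 arrays, and 9 of them had a single probe set.

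The bases upstream of the members' start sites were read from RefSeq (GRCm38.p6), where 24 of the 31 members had an entry. Scd1, Scd2, Sqle, Fdps, Fdft1, Stard4 and Fads1 are not in the counts below, among them 4 of the 7 genes called lower in exFoxp3Th17 than in Th17. The 250 bases before the most upstream listed start were searched on both strands for TCACNCCAC (a form of the sterol regulatory element bound by SREBP), CCAAT (bound by NF-Y), GGGCGG (bound by Sp1) and CACGTG (an E-box). CCAAT was found in 18 of the 24 member windows, against 34.5% of the windows of 27025 genes, and GGGCGG in 16 of 24, against 33.0%. CACGTG was found in 3 of 24, against 6.04%, and TCACNCCAC in 1 of 24, Hmgcs1, against 1.03%. The 27025 genes were not limited to those above the floor, as the members were. Shares among such genes were not counted. These motifs overlapped one another in none of the 5 windows printed. A match describes the letters and is no evidence of binding, and its relation to the signals was not tested. The windows of 4 members with large differences and an entry are printed 5′ to 3′ on the gene's strand, with Acss2 the one whose lowest array was Treg and Hmgcs1 added for its TCACNCCAC match, and capitals mark the motif matches on either strand.
Fads2: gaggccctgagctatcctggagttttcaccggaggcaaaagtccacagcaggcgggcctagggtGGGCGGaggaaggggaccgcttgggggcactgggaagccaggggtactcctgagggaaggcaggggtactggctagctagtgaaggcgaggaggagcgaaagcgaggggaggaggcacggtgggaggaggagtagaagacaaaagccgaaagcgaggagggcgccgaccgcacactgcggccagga
Lss: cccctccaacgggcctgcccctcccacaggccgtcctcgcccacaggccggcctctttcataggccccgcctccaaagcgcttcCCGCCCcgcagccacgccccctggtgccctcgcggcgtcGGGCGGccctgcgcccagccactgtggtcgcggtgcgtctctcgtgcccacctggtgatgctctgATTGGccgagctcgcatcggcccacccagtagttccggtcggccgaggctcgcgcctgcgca
Acss2: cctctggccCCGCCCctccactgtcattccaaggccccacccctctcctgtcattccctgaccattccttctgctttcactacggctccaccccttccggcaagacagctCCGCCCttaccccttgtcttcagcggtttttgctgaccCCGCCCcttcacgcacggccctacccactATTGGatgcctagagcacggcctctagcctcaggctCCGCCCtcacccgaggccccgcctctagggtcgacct
Idi1: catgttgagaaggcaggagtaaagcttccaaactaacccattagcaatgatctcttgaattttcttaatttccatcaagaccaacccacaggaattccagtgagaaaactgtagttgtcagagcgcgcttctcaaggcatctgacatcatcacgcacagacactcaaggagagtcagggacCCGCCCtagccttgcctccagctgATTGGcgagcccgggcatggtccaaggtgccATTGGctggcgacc
Hmgcs1: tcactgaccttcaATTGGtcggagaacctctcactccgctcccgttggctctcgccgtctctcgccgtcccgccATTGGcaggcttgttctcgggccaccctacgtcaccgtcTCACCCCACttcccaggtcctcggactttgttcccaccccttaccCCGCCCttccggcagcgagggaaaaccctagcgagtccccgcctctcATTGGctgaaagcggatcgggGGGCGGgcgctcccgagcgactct
The windows are chr19:10101504-10101753 on the minus strand for Fads2, chr10:76531355-76531604 on the plus strand for Lss, chr2:155517793-155518042 on the plus strand for Acss2, chr13:8885356-8885605 on the plus strand for Idi1 and chr13:119690101-119690350 on the plus strand for Hmgcs1. In Hmgcs1 the TCACNCCAC match began 137 bases before the start and 3 CCAAT matches began 237, 176 and 45 bases before it. Idi1 had 2 CCAAT matches, 45 and 14 bases before the start, and Lss had 1, 62 bases before it. Acss2 had 1 CCAAT and 4 GGGCGG matches, and Fads2 had 1 GGGCGG match.

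The members were lowest in exFoxp3Th17 more often than on any other array, and the sterol enzymes were mostly highest in Th0. In exFoxp3Th17, 23 of the 31 members (74.2%) had their lowest signal, against 23.9% of the 11769 genes above the floor on any array, and Hsd17b7 alone had its highest, against 32.8%. In Th0, 18 members (58.1%) had their highest signal, against 27.6% of those genes, among them the 6 mevalonate enzymes. Th17 was the lowest array for 3 members (19.7% of genes), Treg for 3 (21.1%) and Th0 for 2, Insig2 and Elovl6 (19.6%). Th17 was the highest array for 6 members (18.4%) and Treg for 6 (21.1%). The full order of exFoxp3Th17 lowest, then Th17, Treg and Th0 held for 10 members (32.3%), against 6.09% of those genes: Hmgcs1, Pmvk, Idi1, Fdps, Fdft1, Sqle, Cyp51, Nsdhl, Dhcr7 and Fads2. Of these 10, Fads2 alone is not a sterol pathway enzyme. With the exFoxp3Th17 array left out, 13 members (41.9%) ran from Th17 lowest to Th0 highest, against 21.0%. In bulk arrays, fewer cells that transcribe a gene and less RNA per cell cannot be told apart.

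**Figure D1:**
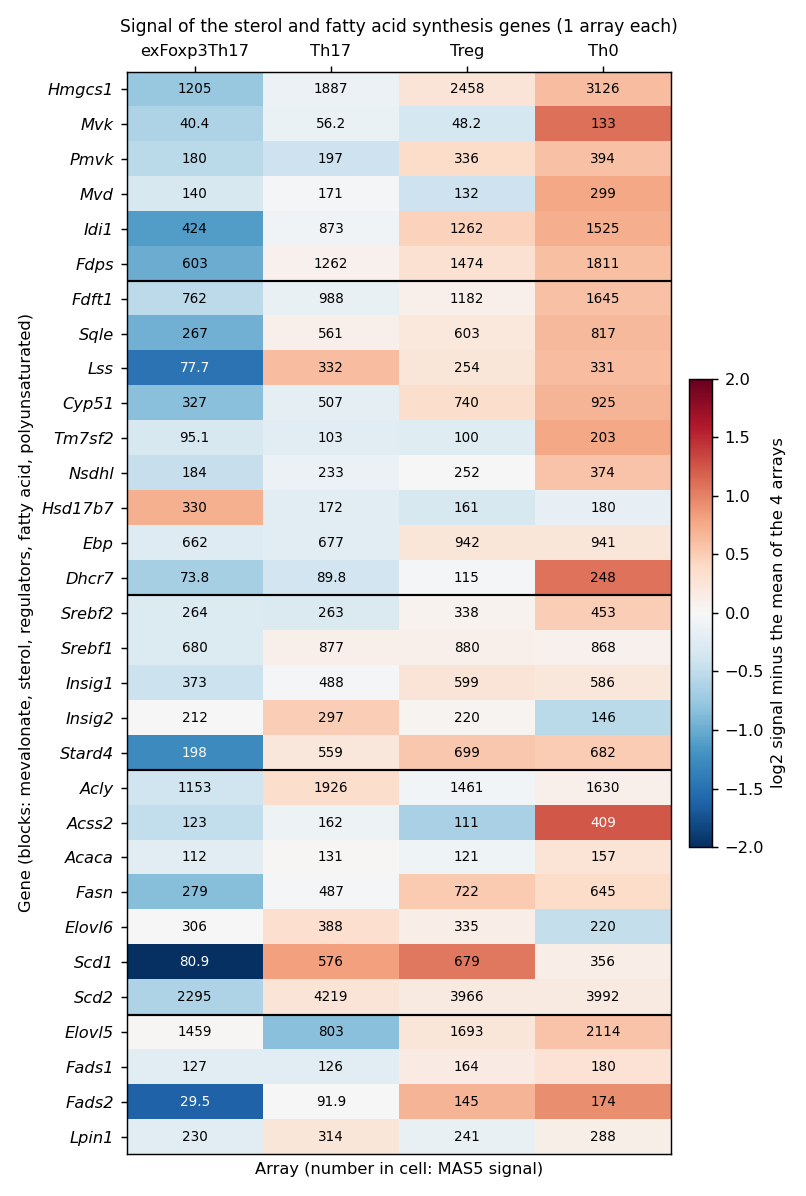
Heat map of the 31 measured genes, with the MAS5 signal written in each cell and the colour giving the log2 signal minus that gene's mean over the 4 arrays; black lines separate the 5 functional blocks. The exFoxp3Th17 column is the bluest, with 23 genes at their lowest, and the Th0 column is red through most of the upper 2 blocks.

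Calls were made at a difference of at least 2-fold, with the brighter array above the floor. Against Th17 cells, which shared the culture and the gate, exFoxp3Th17 cells had no member called higher and 7 of 31 (22.6%) called lower, where 8.06% of 10919 genes were called higher and 7.84% lower. Those 7 were Idi1, Fdps, Sqle, Lss, Stard4, Scd1 and Fads2. The median log2 ratio of the members was -0.39, against 0.09 over all genes, and 27 of the 31 ratios were below 0, against 43.8% of all genes. Against Treg cells, also raised from Foxp3+ CD4 T cells, 1 member was called higher and 10 (32.3%) lower, where 11.9% of 11197 genes were called higher and 10.4% lower. The 10 were the same 7 with Hmgcs1, Cyp51 and Fasn. The median was -0.51, against 0.06 over all genes, and 28 ratios were below 0, against 46.1% of genes. These comparisons share the exFoxp3Th17 array, so they are not independent, and both cross its difference in sex-linked RNA. Among the 7 genes called against Th17, 5 had further probe sets above the floor, and all 8 of those sets were also lower in exFoxp3Th17, 7 of them by 2-fold or more. Among the 11 called against Treg, the 15 further probe sets of 8 genes all had the direction of the call, 10 of them at 2-fold or more.

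The 6 mevalonate enzymes had a median log2 ratio of -0.56 for exFoxp3Th17 over Th17 and -0.96 over Treg, with 2 and 3 called lower. Over all genes the medians were 0.09 and 0.06, with 7.84% and 10.4% called lower. Hmgcs1, the HMG-CoA synthase that condenses acetyl groups, had signals of 1205 in exFoxp3Th17, 1887 in Th17, 2458 in Treg and 3126 in Th0. It was lowest in exFoxp3Th17, 2.04-fold below Treg (called) and 1.57-fold below Th17 (not called), and its 4 other probe sets ran in that direction in both comparisons. The call against Treg was lost with quantile normalization (log2 ratio -0.94) and with the second brightest set (-0.92), and 3 of the 4 other sets were under 2-fold. Idi1, the isomerase that makes dimethylallyl diphosphate, was at 424.3 in exFoxp3Th17, 872.6 in Th17, 1262 in Treg and 1525 in Th0. The order of the arrays was that of Hmgcs1. Its exFoxp3Th17 signal was 2.06-fold below Th17 and 2.98-fold below Treg, and its second probe set gave 2.62-fold and 3.90-fold. Fdps, which makes farnesyl diphosphate, was at 602.8 in exFoxp3Th17, 1262 in Th17, 1474 in Treg and 1811 in Th0. That placed exFoxp3Th17 2.09-fold below Th17 and 2.44-fold below Treg, with no other probe set above the floor. Averaged with that other set, neither call held (log2 ratio -0.53 and -0.64).

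Of the remaining mevalonate members, Mvk and Mvd separated Th0 from the rest more than exFoxp3Th17 from Th17. Mvk, mevalonate kinase, had signals of 40.4 in exFoxp3Th17, 56.2 in Th17, 48.2 in Treg and 133.0 in Th0. Th0 was the one high array, with Th17 2.37-fold and Treg 2.76-fold below it. The second Mvk probe set gave smaller differences, 1.46-fold and 1.55-fold, neither of which would be called. Mvd, the mevalonate diphosphate decarboxylase, was at 140.3 in exFoxp3Th17, 171.2 in Th17, 132.1 in Treg and 299.2 in Th0, with Treg 2.27-fold below Th0. The brightest Mvd set has the suffix of sets that can match more than 1 transcript. The second Mvd set, without that suffix, put Treg 1.67-fold below Th0. The call was lost with that second set (log2 ratio -0.74) and with the mean of the Mvd sets (-0.96). Pmvk, phosphomevalonate kinase, was instead at 179.9 in exFoxp3Th17, 197.0 in Th17, 335.9 in Treg and 393.9 in Th0. Its 2 arrays from Th17 culture were the low ones, and Th17 stopped just short of the 2-fold call against Th0.

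From squalene to cholesterol, the 9 enzymes had a median log2 ratio of -0.34 for exFoxp3Th17 over Th17 and -0.63 over Treg, with 2 and 3 called lower, beside the same medians and shares of all genes. Lss, the lanosterol synthase that closes the sterol rings, differed by an amount that depended on the probe set. On its brightest set the signals were 77.7 in exFoxp3Th17, 332.3 in Th17, 254.0 in Treg and 331.0 in Th0, so that on this set Th17 and Th0 were alike and exFoxp3Th17 was low. The differences were 4.28-fold from Th17 and 3.27-fold from Treg. This probe set has the suffix of sets that can match more than 1 transcript; another Lss probe set without it gave 2.16-fold and 2.21-fold (32.5 in exFoxp3Th17, 70.0 in Th17, 71.7 in Treg and 103.2 in Th0). On that set Th17 was 1.47-fold below Th0, and with the mean of all probe sets the call against Treg was lost (log2 ratio -0.95). Sqle, squalene epoxidase, was at 266.6 in exFoxp3Th17, 561.5 in Th17, 603.5 in Treg and 817.4 in Th0. It was 2.11-fold lower in exFoxp3Th17 than in Th17 and 2.26-fold lower than in Treg, on its single probe set. Cyp51, lanosterol 14-demethylase, was at 326.5 in exFoxp3Th17, 506.6 in Th17, 740.4 in Treg and 925.3 in Th0. It was called lower against Treg (2.27-fold) and not against Th17 (1.55-fold), and the call was lost with the mean of its probe sets (log2 ratio -0.86).

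Dhcr7, the reductase of the last step to cholesterol, was at 73.8 in exFoxp3Th17, 89.8 in Th17, 114.8 in Treg and 247.7 in Th0. Th0 was the high array, with Th17 2.76-fold and Treg 2.16-fold below it. Tm7sf2, a sterol 14-reductase, was at 95.1 in exFoxp3Th17, 102.5 in Th17, 100.3 in Treg and 202.7 in Th0. Its 3 lower arrays lay within 1.08-fold of one another, and Treg was 2.02-fold below Th0. That call was lost with the floor as a pseudocount (log2 ratio -0.93), with quantile normalization (-0.98) and with equal medians (-0.93). Hsd17b7, a 3-ketosteroid reductase of the same pathway, ran against the group, at 330.0 in exFoxp3Th17, 172.4 in Th17, 161.3 in Treg and 179.9 in Th0. It was 2.05-fold higher in exFoxp3Th17 than in Treg, a call lost under other scalings (log2 ratio 0.96 with quantile normalization, 0.95 with equal medians), and 1.91-fold higher than in Th17, which was no call. Both other Hsd17b7 probe sets above the floor were also highest in exFoxp3Th17. The brightest Hsd17b7 set, like those of Hmgcs1, Fdft1 and Acly, has a suffix that marks probes shared with other sequences. Fdft1 (squalene synthase), Nsdhl (a sterol dehydrogenase) and Ebp (a sterol isomerase) were called in no comparison. Their differences in exFoxp3Th17 were 1.30-fold, 1.27-fold and 1.02-fold below Th17, and 1.55-fold, 1.37-fold and 1.42-fold below Treg.

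**Figure D2:**
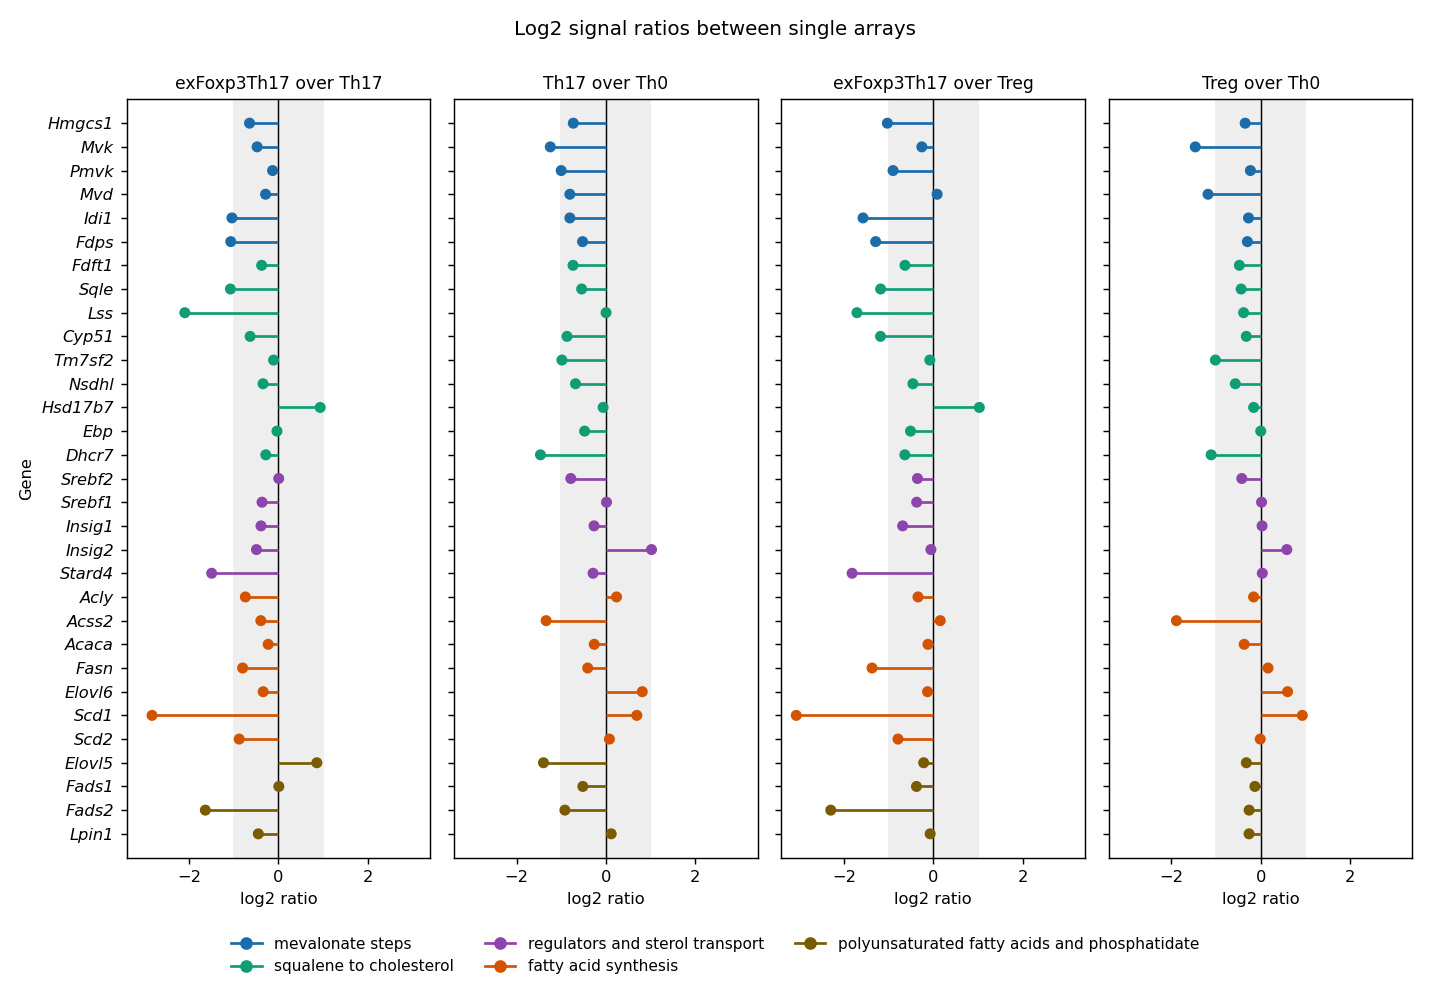
Log2 signal ratio of each member in the 4 comparisons, each panel setting 1 array over another, with the colour giving the functional block and the grey band marking differences under 2-fold. Points left of the band in the first panel are the 7 genes called lower in exFoxp3Th17 than in Th17, with Scd1 at -2.83 and Lss at -2.10 the farthest out.

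Of the 4 SREBP and INSIG genes, Insig2 alone was called in any comparison. Srebf2, the SREBP that chiefly drives sterol genes, had signals of 264.1 in exFoxp3Th17, 262.8 in Th17, 337.5 in Treg and 452.6 in Th0. The exFoxp3Th17 and Th17 signals of this probe set lay within 1.01-fold, while a dimmer Srebf2 probe set gave 46.1 in exFoxp3Th17, 67.2 in Th17, 93.5 in Treg and 112.8 in Th0. That second set put exFoxp3Th17 1.46-fold below Th17 and 2.03-fold below Treg. Srebf1, the SREBP gene tied to fatty acid synthesis and a target of LXR, was at 680.2 in exFoxp3Th17, 877.2 in Th17, 879.8 in Treg and 867.8 in Th0. Th17 and Treg each lay within 1.01-fold of Th0, and exFoxp3Th17 was 1.29-fold below both Th17 and Treg, which was no call.

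Insig1, whose own transcription SREBP drives, was at 372.6 in exFoxp3Th17, 488.1 in Th17, 599.3 in Treg and 586.2 in Th0. It was called in no comparison, with exFoxp3Th17 1.31-fold below Th17 and 1.61-fold below Treg. Insig2, which also retains SREBP but is regulated differently, ran in another order, at 211.7 in exFoxp3Th17, 297.5 in Th17, 219.5 in Treg and 146.3 in Th0. Th17 was 2.03-fold above Th0, just inside the call, and the other probe sets gave 2.17-fold and 1.53-fold. The call was lost with the floor as a pseudocount (log2 ratio 0.97) and with the mean of its probe sets (0.92). Stard4, a carrier of cholesterol between membranes that SREBP induces, was at 198.4 in exFoxp3Th17, 559.0 in Th17, 699.4 in Treg and 681.8 in Th0. It was low in exFoxp3Th17 alone, 2.82-fold below Th17 and 3.53-fold below Treg, and both other probe sets showed 2-fold or more in each comparison.

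On their brightest probe sets, the 7 fatty acid synthesis genes were all lower in signal in exFoxp3Th17 than in Th17. A second Acss2 probe set went the other way, at 91.0 in exFoxp3Th17 and 77.0 in Th17. The median log2 ratio of the 7 was -0.74 over Th17 and -0.34 over Treg, with 1 and 2 called lower. Over all genes the medians were 0.09 and 0.06, with 7.84% and 10.4% called lower. Scd1, the stearoyl-CoA desaturase that makes oleate, had the largest difference of all members. Its signals were 80.9 in exFoxp3Th17, 575.9 in Th17, 679.3 in Treg and 355.9 in Th0. Thus exFoxp3Th17 was 7.11-fold below Th17 and 8.39-fold below Treg, and the second probe set gave 7.28-fold and 8.26-fold. Its paralog Scd2 was at 2295 in exFoxp3Th17, 4219 in Th17, 3966 in Treg and 3992 in Th0. Scd2 was also low in exFoxp3Th17, but by 1.84-fold and 1.73-fold on its brightest probe set, which was no call. The 2 dimmer Scd2 probe sets differed by more, 3.11-fold and 4.25-fold from Th17 and 2.40-fold and 5.03-fold from Treg, so the size of the Scd2 difference depended on the probe set. How far probes for these paralogs read each other's RNA was not tested.

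Fasn, fatty acid synthase, was at 279.3 in exFoxp3Th17, 486.6 in Th17, 722.5 in Treg and 644.8 in Th0. It was 2.59-fold lower in exFoxp3Th17 than in Treg, and 1.74-fold lower than in Th17, which was no call. Acly, the citrate lyase that supplies acetyl-CoA, was at 1153 in exFoxp3Th17, 1926 in Th17, 1461 in Treg and 1630.4 in Th0, with exFoxp3Th17 1.67-fold below Th17 and 1.27-fold below Treg. Acss2, which makes acetyl-CoA from acetate, was at 123.3 in exFoxp3Th17, 162.0 in Th17, 110.6 in Treg and 409.3 in Th0. Acss2 set Th0 apart from the other 3 arrays: Th17 was 2.53-fold and Treg 3.70-fold below Th0, and a second probe set gave 3.85-fold and 3.87-fold. Acaca, the acetyl-CoA carboxylase that commits carbon to fatty acids, spanned 111.8 to 156.9 and was called nowhere. Elovl6, an elongase of saturated chains, was at 306.3 in exFoxp3Th17, 388.1 in Th17, 334.7 in Treg and 220.4 in Th0, and Th17 was 1.76-fold above Th0, which was no call.

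Among enzymes of polyunsaturated chains, Fads2, the delta-6 desaturase, was at 29.5 in exFoxp3Th17, 91.9 in Th17, 145.0 in Treg and 173.5 in Th0. It was 3.11-fold lower in exFoxp3Th17 than in Th17 and 4.91-fold lower than in Treg, and both other probe sets differed by 2-fold or more in each comparison. In exFoxp3Th17 those other sets read 10.8, below the floor, and 13.5, just above it. The folds of the set at 10.8 are therefore lower bounds. Fads1, the delta-5 desaturase, did not follow: its signals were 126.6 in exFoxp3Th17, 125.8 in Th17, 164.3 in Treg and 179.8 in Th0, and it was called nowhere. Elovl5, the elongase that acts between them, was instead lowest in Th17, at 1459 in exFoxp3Th17, 803.0 in Th17, 1693 in Treg and 2114 in Th0. Th17 was 2.63-fold below Th0, as was the second probe set (2.61-fold), and exFoxp3Th17 was 1.82-fold above Th17, which was no call. Lpin1, a phosphatidate phosphatase, spanned 229.5 to 313.6 with no call.

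**Figure D3:**
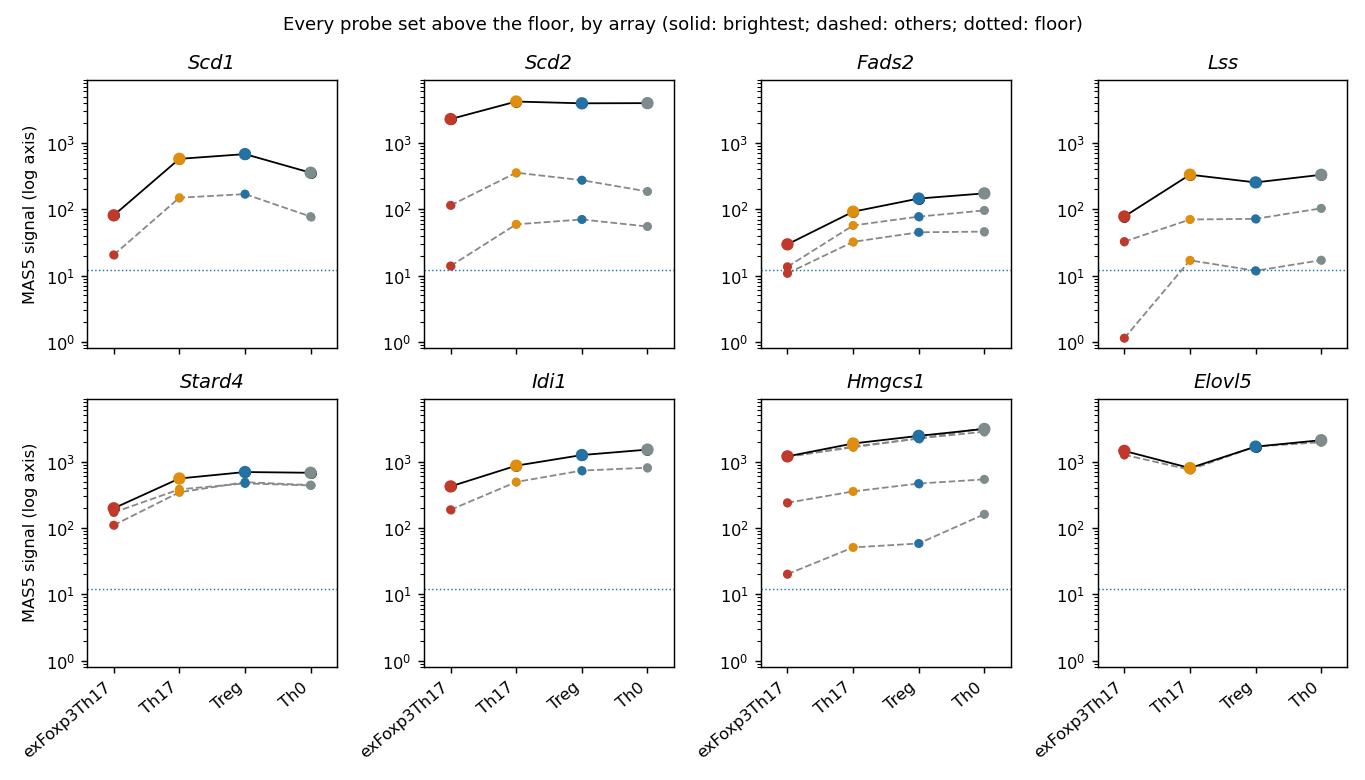
MAS5 signal on a log axis for every probe set above the floor on any array, for 8 members, by array; the solid line is the brightest probe set, dashed lines the others and the dotted line the floor of 12.1. Lines join the readings of 1 probe set and imply no order of the arrays. The probe sets of Scd1, Fads2, Stard4 and Idi1 run nearly parallel, whereas those of Scd2 are lower by unequal amounts in exFoxp3Th17.

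The comparisons with Th0 gave 5 calls each. In Th17 against Th0, 1 member (Insig2) was called higher and 4 (12.9%) lower, where 8.76% of 11050 genes were called higher and 7.33% lower. The lower ones were Mvk, Dhcr7, Acss2 and Elovl5. The median over the members was -0.52, against -0.07 over all genes, and 23 ratios were below 0, against 54.8% of genes. The 9 enzymes from squalene to cholesterol had a median of -0.68 and the 6 mevalonate enzymes one of -0.81, with all 6 below 0, while the 7 fatty acid synthesis genes had a median of 0.08. In Treg against Th0, no member was called higher and 5 (16.1%) lower, where 5.85% of 11171 genes were called higher and 5.21% lower. These were Mvk, Mvd, Tm7sf2, Dhcr7 and Acss2, with a median over the members of -0.27, against -0.04 over all genes, and 23 ratios below 0, against 53.7% of genes. Both comparisons share the Th0 array. Over the 4 comparisons 18 members were called at least once, and the other 13 differed by 1.29-fold to 2.19-fold between their highest and lowest arrays.

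Neighbouring genes of these pathways were read from lists, beside the shares of all genes called: 8.06% higher and 7.84% lower in exFoxp3Th17 against Th17, and 11.9% and 10.4% against Treg. For Th17 against Th0 those shares were 8.76% and 7.33%, and for Treg against Th0 5.85% and 5.21%. In short lists, counts within about 1 gene of these shares say nothing of the list. Of 13 measured further sterol and isoprenoid genes, none was higher and 2 were lower in exFoxp3Th17 than in Th17, about 1 gene more than the share of all genes, with a median log2 ratio of -0.41 (0.09 over all genes). They were Msmo1, a sterol 4-methyl oxidase (367.8 in exFoxp3Th17, 745.9 in Th17), and Tmem97, an endoplasmic reticulum protein that binds sterols (28.0 in exFoxp3Th17, 94.0 in Th17). Against Treg, Tmem97 was the 1 gene of the list called, 4.70-fold lower in exFoxp3Th17, so that the calls lay below the share of all genes there. The median log2 ratio was -0.39 (0.06 over all genes), with 11 of 13 ratios below 0, against 46.1% of genes. Against Th0 none was called in Th17 or in Treg. Of 10 further SREBP regulators, none was called in exFoxp3Th17 against Th17, and the median was -0.12. Mid1ip1, which promotes polymerisation of acetyl-CoA carboxylase, was the 1 called against Treg, 2.29-fold lower in exFoxp3Th17. Scap, the escort of SREBP, was at 312.8 in exFoxp3Th17, 369.1 in Th17, 301.2 in Treg and 375.3 in Th0.

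Abca1 and Lipa, in cholesterol handling, were called higher in exFoxp3Th17 than in Th17 and than in Treg. The counts for their list and for fatty acid oxidation were near the shares of all genes. Of 10 genes of cholesterol uptake, storage and efflux, 2 were higher and 1 lower than in Th17 (median 0.41, against 0.09 over all genes). Abca1, the cholesterol exporter and a target of LXR, was 20.9-fold higher than in Th17 and 32.1-fold higher than in Treg. Abcg1 and Mylip of the same list were called in neither comparison. Abcg1 was 1.34-fold and 1.13-fold higher, and Mylip was 1.14-fold higher than in Th17 and 1.98-fold lower than in Treg. Lipa, the lysosomal lipase that frees cholesterol, was 2.64-fold higher than in Th17 and 3.20-fold higher than in Treg. Its signals were 592.1 in exFoxp3Th17, 224.0 in Th17, 185.0 in Treg and 415.6 in Th0, with Treg 2.25-fold below Th0. The gene called lower than in Th17 was Scarb1, a lipoprotein receptor, at 79.0 in exFoxp3Th17 and 174.3 in Th17. In fatty acid oxidation, 2 of 14 genes above the floor were higher and none lower, with 6 ratios below 0 and a median of 0.19: Cpt1a, the transferase that admits fatty acids to mitochondria, by 2.70-fold, and its partner carrier Slc25a20 by 2.17-fold. Against Treg these same 2 were called, at 2.07-fold and 2.44-fold. Against Th0, the uptake and efflux list had 2 of 10 lower in Th17 and 2 of 10 lower in Treg, and the oxidation list had 1 of 14 higher in Th17, below the share of all genes, and none called in Treg.

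Of 21 further fatty acid and glycerolipid genes above the floor, 1 was higher and 5 were lower in exFoxp3Th17 than in Th17 (median -0.40). The higher gene was the elongase Elovl7, at 168.1 in exFoxp3Th17, 42.6 in Th17, 25.3 in Treg and 18.9 in Th0. The lower ones included Acsl4, an acyl-CoA synthetase (2.70-fold), the acyltransferase gene Agpat3 (2.55-fold) and Slc25a1, the mitochondrial citrate carrier (2.19-fold). Against Treg, 2 of 22 were higher and 5 lower in exFoxp3Th17. In Th17 against Th0 this list had 8 higher and 1 lower of 22, led by Dgat1, which makes triglyceride (707.8 in Th17, 118.2 in Th0, 5.99-fold). Treg against Th0 had 4 higher and none lower, with Dgat1 again first at 4.09-fold.

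Cell cycle genes were also low in exFoxp3Th17. All 18 measured were lower in exFoxp3Th17 than in Treg by 2-fold or more (median -2.04), and 12 of 18 were called lower than in Th17 (median -1.58). Their summed signal was 9063 in exFoxp3Th17, 21871 in Th17, 31620 in Treg and 29078 in Th0. In Th17 against Th0, 3 of 18 were lower (median -0.41). In Treg against Th0 none of the 18 was called and the median was 0.14, where 5.85% of all genes were called higher and 5.21% lower. The part of the cell cycle difference in these results was not tested.

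**Figure D4:**
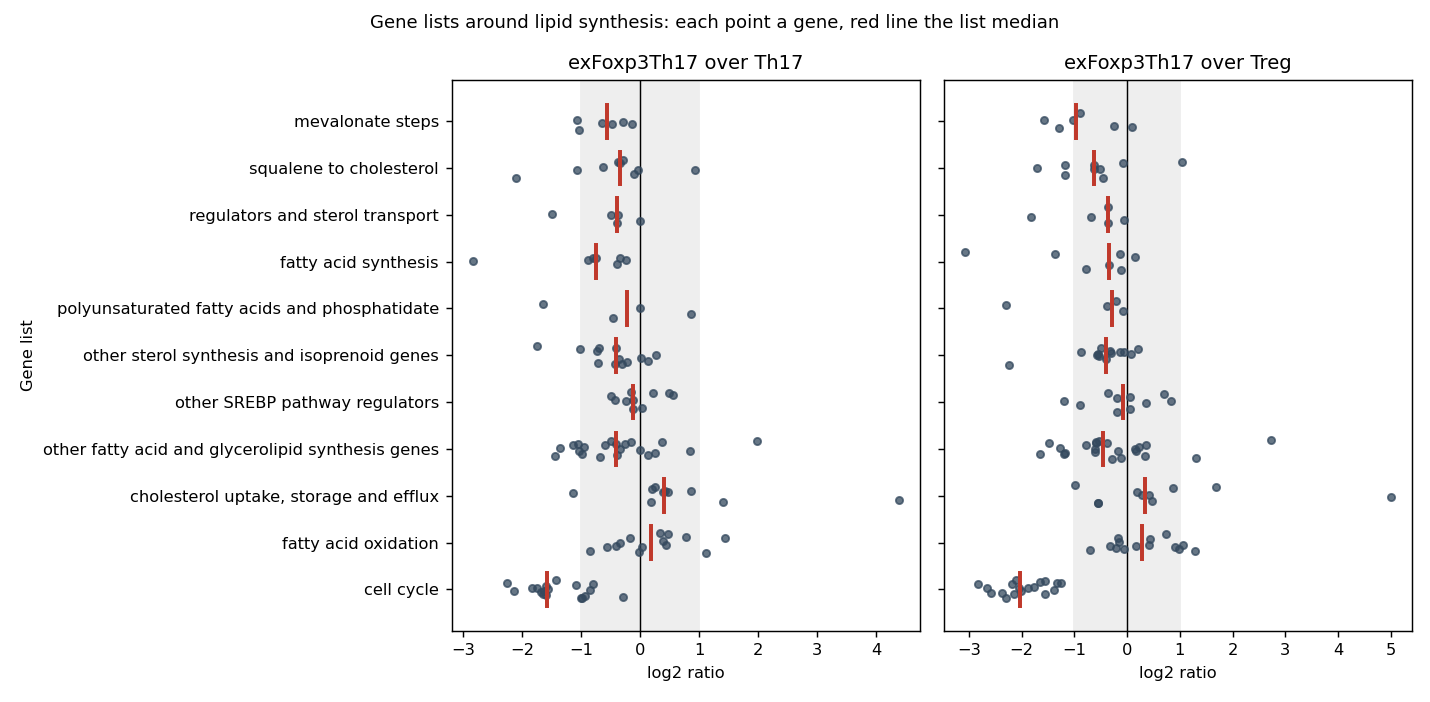
Log2 signal ratios of genes above the floor in 11 lists, for exFoxp3Th17 over Th17 and over Treg; each point is a gene, the red line the list median and the grey band differences under 2-fold, with points spread vertically for legibility. The 5 member blocks have medians below 0 in both panels, cholesterol uptake, storage and efflux has medians above 0 with Abca1 20.9-fold and 32.1-fold higher, and the cell cycle list has the lowest medians.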

How the data were processed

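The deposited table holds 1 intensity per probe set and array, on a linear scale, which the authors computed with MAS5 (version not stated), per the submitters' processing notes. Biotin-labelled cRNA came from 1 µg of total RNA per population, per the labels' protocols. MAS5 merges the probes of a set and scales the array, so ratios are relative to each array's total. Of 45101 probe sets, 34945 carry a single gene symbol, 932 several and 9160 none here (64 are controls). Symbols were updated through the gene identifier, found in the RefSeq table for 34741. Values below the floor of 12.1, the pooled median, were set to it before log2. Each gene was read from the probe set with the highest mean log2 signal. With 1 array per group no test was possible, and the number of arrays limits the precision. As a description of noise within arrays, log2 ratios of 2 probe sets of a gene differed with a robust SD of 0.38 to 0.45. Calls used 2-fold with the higher array above the floor. The calling step was run on simulated arrays with a set noise and known changes in genes above 4 times the floor. That checks the step and says nothing of the spread between samples. Alternatives varied the floor, the scale, the normalization, the probe set and the threshold.

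The members and lists were chosen with earlier results of these data known. Signals were to be printed for members called in any comparison, for Srebf1, Srebf2, Insig1, Insig2, Scd1 and Scd2, and for up to 4 called genes of each list. The counts by order of the 4 arrays and the choice of Hmgcs1 among the promoters were added after values were seen. So were the signals of uncalled members and of Scap, and the values of Abcg1 and Mylip. Python 3.11.15, pandas 2.3.3, numpy 2.4.6 and matplotlib 3.10.9 were used.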

Additional observations from a re-analysis of the deposited data

How the results depend on the processing

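The member medians stayed below 0 in the 4 comparisons under each of the 8 alternatives other than the threshold. In the main setting the median over all genes was itself below 0 for Th17 over Th0 (-0.07) and for Treg over Th0 (-0.04). The member medians ran from -0.58 to -0.37 for exFoxp3Th17 over Th17 and from -0.66 to -0.50 for exFoxp3Th17 over Treg. For Th17 over Th0 they ran from -0.55 to -0.46, and for Treg over Th0 from -0.30 to -0.18. Halving or doubling the floor could move neither these member medians nor the calls. The lowest member signal, Fads2 at 29.5 in exFoxp3Th17, lay above 2 times the floor (24.2). Requiring 4 times the floor on the higher array could lose no call, since each called member was above it there. Of 28 calls, 3 were lost with the floor as a pseudocount, 3 with quantile normalization, 2 with equal medians, 8 with the mean of all probe sets and 20 at 3-fold, and 6 of 20 with the second brightest probe set. No call reversed under these. The shares of all genes called at 1.5-fold and at 3-fold were not counted, so the member counts at these thresholds cannot be set against them. At a 1.5-fold threshold, exFoxp3Th17 against Th17 had 2 members higher and 12 lower, Th17 against Th0 had 3 higher and 14 lower, and Treg against Th0 had 3 higher. At 3-fold, the lower members were 3 in exFoxp3Th17 against Th17, 4 in exFoxp3Th17 against Treg, 0 in Th17 against Th0 and 1 in Treg against Th0, and the higher ones were 0 in Th17 against Th0 and in exFoxp3Th17 against Treg. The single higher member, Insig2 in Th17 against Th0 and Hsd17b7 in exFoxp3Th17 against Treg, became 0 with the floor as a pseudocount, with the mean of all probe sets and with the second brightest probe set, and Hsd17b7 also under quantile normalization and equal medians. With the second brightest probe set, which 20 members have above the floor, the lower members were 2 in Th17 against Th0 and 1 in Treg against Th0. Treg against Th0 gained 1 higher member with that probe set, with the mean of all probe sets and with equal medians. In the mean over probe sets, the other Fdps set lay below the floor, which by construction shrank its log2 ratio to -0.53 for exFoxp3Th17 over Th17. The causes of the other shifts were not tested. No scaling moved the median of all genes by over 0.1 in log2. No paired analysis was possible because each group has 1 array. Low signals limit Mvk and Fads2, the 2 members not above 4 times the floor on every array.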
